A study of Mus musculus with 2 samples.

Results

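Rhox5-positive CD45-low cells were a group of 172 cells among the 1000 cells of a single-cell RNA library from EO771 mammary tumors of mice, out of 2806 cells in both libraries. They were selected on 2 measured values, at least 5 transcripts of Rhox5 and at most 2 of Ptprc, the gene for the leukocyte protein CD45. Transcripts were counted as unique molecular identifiers (UMIs), and levels are given as CPM, the UMIs of a gene scaled to a fixed total of the summed cells. Per the labels, both libraries came from 8 week old female C57BL6/J mice that carried Cdh5Cre-ERT2 and a ZSGreen reporter and received tamoxifen. This pair of alleles turns ZSGreen on in cells that use the endothelial Cdh5 promoter. EO771 cells, a mammary tumor line syngeneic to C57BL/6, were injected into the mammary fat pad and grew for about 3 weeks. Live ZSGreen-positive cells were sorted from tumors (the tumor library, labelled TEC) or from normal mammary glands (the normal gland library, labelled NEC, 1806 cells). No further treatment was used, and the labels do not say how many animals stand behind a library. The tumor cells with at least 1 Ptprc UMI and no Rhox5 UMI, 590 cells called CD45-positive below, served as the comparison. All 172 cells came from 1 library, so there is no replicate of any group and no test, and every interval covers counting error only.

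Rhox5 is an X-linked homeobox gene that in healthy mice is used mainly in the placenta, testis and ovary, and it was first described as an oncofetal gene of mouse tumor lines. Tex19.1 is a germ cell and placental gene known for restraining mobile elements. Cav1 builds caveolae, the flask-shaped pits of the cell membrane, Cald1 encodes the actin-binding protein caldesmon, and Nppb encodes a natriuretic peptide of the heart. Carcinoma cells can lie anywhere between an epithelial state, held together by cadherin, claudins and keratins, and a mesenchymal state with vimentin, collagens and contractile proteins. Snai1, Twist1, Twist2, Zeb1 and Zeb2 encode transcription factors that repress epithelial genes. The Snai and Zeb factors do so through a short DNA word, CAGGTG or, on the other strand, CACCTG.

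The start regions of 2 germline genes that marked the group, and of 3 epithelial genes at different levels in it, are shown because the results turn on these genes. Each is the 250 bases before the annotated start, 5′ to 3′ on the gene's strand, from RefSeq on GRCm38.p6. For Rhox5 (chrX:37754358-37754607, plus strand) and Tex19.1 (chr11:121145893-121146142, plus strand) the capitals mark CG, the letter pair that carries DNA methylation in mammals.
Rhox5: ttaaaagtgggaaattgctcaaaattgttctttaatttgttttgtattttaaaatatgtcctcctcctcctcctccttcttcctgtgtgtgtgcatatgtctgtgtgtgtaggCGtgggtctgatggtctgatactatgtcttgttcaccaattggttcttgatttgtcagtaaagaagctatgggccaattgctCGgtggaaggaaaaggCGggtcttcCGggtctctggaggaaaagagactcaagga
Tex19.1: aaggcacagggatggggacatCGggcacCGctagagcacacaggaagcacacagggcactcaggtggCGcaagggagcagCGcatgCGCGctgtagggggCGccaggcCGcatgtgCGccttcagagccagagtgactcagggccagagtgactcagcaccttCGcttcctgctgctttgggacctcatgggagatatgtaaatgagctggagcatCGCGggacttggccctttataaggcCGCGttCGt
Rhox5 held 4 CG and Tex19.1 held 15. The median of 32851 mouse start regions of this length was 6, and 27.3% held at least 15. For Krt8 (chr15:102004343-102004592, minus strand), Krt18 (chr15:102027966-102028215, plus strand) and Epcam (chr17:87635729-87635978, plus strand) the capitals mark CAGGTG or CACCTG, searched on both strands.
Krt8: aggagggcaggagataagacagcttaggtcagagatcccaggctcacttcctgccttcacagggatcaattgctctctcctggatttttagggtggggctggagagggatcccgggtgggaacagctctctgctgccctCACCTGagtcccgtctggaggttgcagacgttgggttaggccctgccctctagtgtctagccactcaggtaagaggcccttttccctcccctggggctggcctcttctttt
Krt18: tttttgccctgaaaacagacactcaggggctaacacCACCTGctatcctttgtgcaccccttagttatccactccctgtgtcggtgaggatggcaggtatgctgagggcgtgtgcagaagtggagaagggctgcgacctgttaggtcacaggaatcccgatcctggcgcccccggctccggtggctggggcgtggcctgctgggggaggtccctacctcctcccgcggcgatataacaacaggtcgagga
Epcam: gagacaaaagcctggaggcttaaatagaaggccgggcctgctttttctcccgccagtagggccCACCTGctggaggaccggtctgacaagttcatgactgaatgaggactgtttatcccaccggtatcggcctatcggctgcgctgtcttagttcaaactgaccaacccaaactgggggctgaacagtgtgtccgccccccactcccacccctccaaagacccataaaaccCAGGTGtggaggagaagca
Krt8 and Krt18 each held 1 such word, 111 and 214 bases before the start, and Epcam held 2, at 187 and 19 bases. The word was not particular to these genes: Tex19.1 held 1 as well, at 190 bases, not marked above, and Rhox5 held 0. Of all start regions, 17.2% held at least 1 and 2.06% held 2 or more. A match of letters says nothing on whether a factor was bound, and whether these words bear on the transcript levels, given further on, was not tested.

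The cells had a median of 24 Rhox5 UMIs (5 to 137), and Ptprc had 0 UMIs in 127, 1 in 38 and 2 in 7 of them. In CPM, single cells ran from 114 through a median of 658 to 1599 for Rhox5, and the sum stood at 676 CPM. No control cell met the rule, and Rhox5 had 0 UMIs in the whole normal gland library. The other 4 marker genes were not used by the rule but were named with it, and their values are a description. Cald1 was present in every one of the cells, at 551 CPM against 4.88 in the CD45-positive cells, and its single-cell values ran from 45.8 through 526 to 1649 CPM. Cav1 stood at 287 against 8.25 CPM and was found in 97.7% of the cells, against 5.59% of the CD45-positive cells. Tex19.1 stood at 145 against 1.88 CPM and was found in 88.4% against 1.69%. Nppb was the least even of the markers: it reached 228 against 2.25 CPM, was found in 75.6% against 2.03% of cells, and ran from 0 through a median of 70.4 to 1710 CPM. All 5 markers were present together in 120 of the 172 cells. In the CD45-positive cells, 12.7% held a UMI of any of the 4 markers other than Rhox5, and none held 5 of Cald1.

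**Figure D1:**
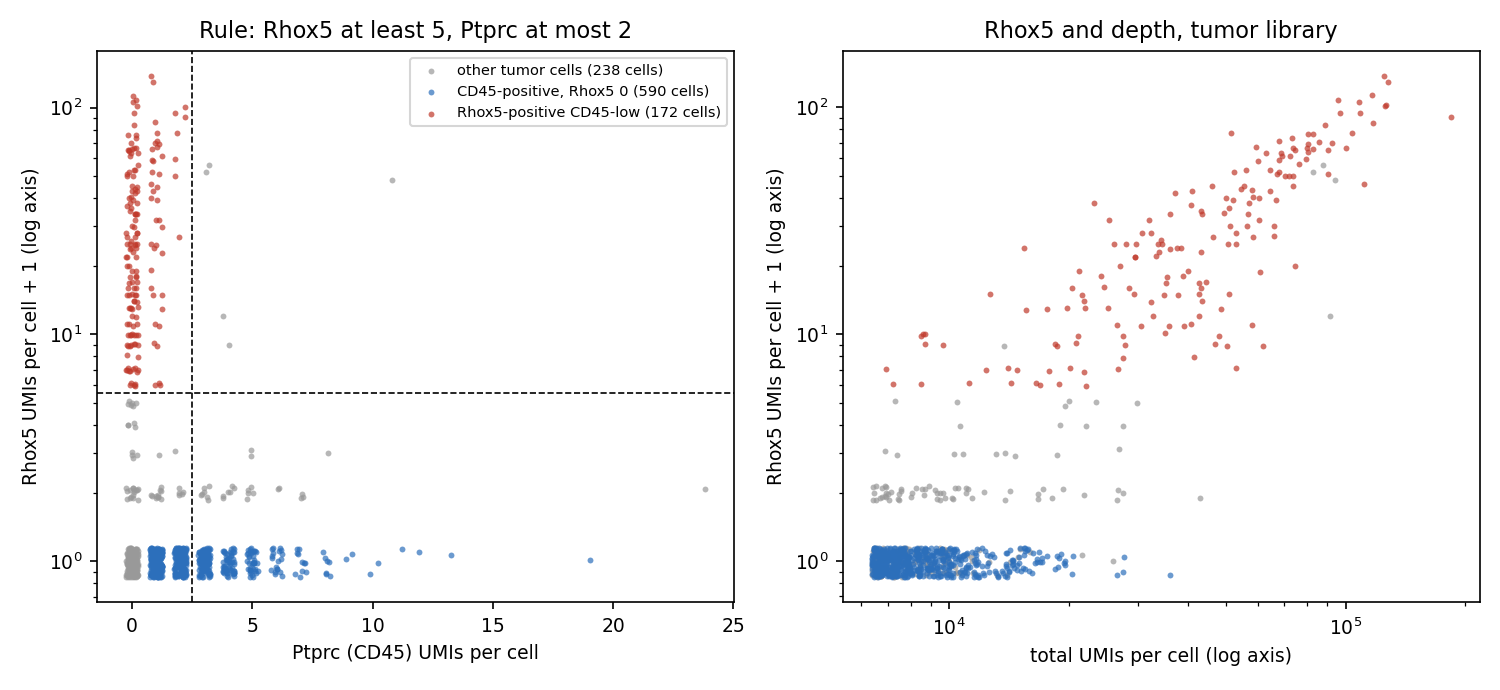
Rhox5 UMIs per cell plus 1 (log axis) against Ptprc UMIs (left, points jittered) and against total UMIs (right, log axis) for the 1000 tumor cells. The dashed lines are the rule; the 172 selected cells stand at the upper left of the left panel and were also deep, at a median of 43253 UMIs.

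The edges of the rule cut through few cells. The 8 cells with exactly 5 Rhox5 UMIs had Cald1 at 621 CPM, and the 10 cells just outside, with 3 or 4, had it at 763. Macrophage Lyz2 stood at 155 and 126 CPM in the same cells, and Tyrobp, an adaptor of myeloid receptors, at 164 and 84.2. The 7 cells with 2 Ptprc UMIs were deep, at a median of 96983 UMIs. The 5 cells with at least 5 Rhox5 UMIs that were left out for Ptprc had Cald1 at 625 CPM, Lyz2 at 219 and Tyrobp at 306. A further 158 tumor cells had neither gene, of which 103 had at least 5 Lyz2 UMIs and 9 at least 5 Cald1 UMIs.

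Depth differed widely and bears on every share of cells with a UMI. The Rhox5-positive cells held 51.6% of the library's UMIs, with a median of 43253 UMIs (6938 to 184252) and 5460 genes, against 7873 UMIs (6377 to 36045) and 2124 genes in the CD45-positive cells. Mitochondrial UMIs were alike, at medians of 1.70% and 1.58%, and ribosomal protein genes took 35.5% against 22.3% of the UMIs. A list of 13774 genes was deposited. A gene with any tumor UMI was present in at least 5 tumor cells, and 618 genes were listed at 0 for the whole tumor library, so a 0 can hide up to 4 cells. The libraries shared 2 cell barcodes, and none of the selected cells carried one.

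Checked against markers of the sorted cell type, the cells did not match their endothelial label. Of 22 endothelial genes 17 were in the table and 7 reached 50 UMIs over both groups, 2 of them in the CD45-positive cells by themselves. Vascular receptors and junction genes were at or near 0, with Kdr at 0.943 CPM, Pecam1 at 1.77, Flt1 at 0.354, Cdh5 at 3.66 and Cldn5, Tek, Vwf, Plvap and Mmrn2 without a UMI. Kdr and Pecam1 were lower than in the CD45-positive cells, which had 27.2 and 18.4 CPM. Ramp2, a receptor partner for adrenomedullin, was higher at 45.6 against 1.13 CPM, as were Ecscr (38.9 against 1.69), Eng (38.7 against 6.94), Egfl7 (22.1 against 4.88) and Esam (8.61 against 1.69). Transcripts of the reporter were not analysed here, and why these cells passed the sort was not tested.

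The comparison with the CD45-positive cells covered 9582 genes with at least 50 UMIs over both sums. A gene was called higher or lower when its CPM differed at least 2-fold and its exact 95% interval excluded 1. By this rule 3061 genes (31.9%) were higher and 1886 (19.7%) were lower in the Rhox5-positive cells, and the median log2 ratio of all genes was 0.37. Scaled by the median of ratios instead, 2281 were higher and 2379 lower, so the part of the calls that were higher moved from 61.9% to 48.9%. A gene could reach the minimum through 1 group alone, and such a gene had to differ. The counts within gene lists below are therefore a description. For several lists they are given with the number of genes that reached 50 UMIs in the CD45-positive cells by themselves. In cells of like depth, 10000 to 30000 UMIs (44 and 138 cells), 1010 were higher and 1231 lower of 5151 genes that reached the minimum. In that depth window the ratios of Nppb, Tex19.1 and Twist2 were 41.4-fold, 41.0-fold and 24.2-fold, against 101-fold, 77.2-fold and 52.0-fold over all cells, and Col6a1 was 216-fold against 84.1-fold.

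The highest lower bounds of the ratio belonged to the 15 genes given here. Fkbp11, a folding enzyme of the secretory pathway, stood at 143 CPM in the Rhox5-positive cells and at 0.563 (3 UMIs) in the CD45-positive cells, a 255-fold ratio (95% interval 86.9 to 1236). Cald1 was 113-fold higher (77.0 to 173). Serpinh1, the collagen chaperone HSP47, stood at 642 against 6.94 CPM, 92.4-fold (67.0 to 131), and was found in every Rhox5-positive cell and in 4.75% of the CD45-positive ones. Aebp1, a matrix protein that binds collagen, was 111-fold higher (69.2 to 191), and Pcolce, which promotes the trimming of procollagen, 128-fold (61.8 to 318). Of collagen VI, a beaded-filament collagen, 3 chains were in this set. Col6a1 stood at 221 against 2.63 CPM, Col6a3 at 121 against 1.13 and Col6a2 at 76.1 against 0.563. The rest by the same rule were Nppb (101-fold, 57.8 to 196), Wfdc2 (112-fold, 54.4 to 280), Krt8 (86.9-fold, 45.6 to 190.4), Steap1, Gpx8, Ank3 and Foxs1. Ank3, a membrane-skeleton adaptor, and the forkhead gene Foxs1 had no UMI in the CD45-positive cells and were at least 63.7-fold and at least 57.6-fold higher, taking 3 counts over that group as the limit.

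With genes left out whose symbols mark them as ribosomal protein or mitochondrial, the highest level was that of S100a6, a calcium-binding protein, at 11674 CPM against 3474. Next came the translation factor Eef1a1 (7704), the ferritin chain Fth1 (6705), the nuclear RNA Malat1 (5442), vimentin Vim (5271), Fau (5092), the glycolytic enzyme Gapdh (5029), galectin Lgals1 (4122), the actins Actg1 (4103) and Actb (3941), the actin-binding Tmsb10 (3958) and the chaperone Hsp90ab1 (3524). Of these 12 genes S100a6, Gapdh and Hsp90ab1 were called higher, at 3.36-fold, 2.06-fold and 3.99-fold. Fau encodes a ribosomal protein too, under a symbol that was not left out. Fth1 and Malat1 were 3.66-fold and 3.91-fold lower than in the CD45-positive cells, and Actb 3.34-fold lower.

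Of the epithelial genes only Krt8 stood at a clear level. The list had 50 genes, 34 of them in the table and 9 compared. Of those 3 were higher and 5 lower, and the median log2 ratio was -3.04, where that of all genes was 0.37. The 6 that reached 50 UMIs in the CD45-positive cells had a median of 5.22% of the level there (2.93% to 111%). Krt8, a keratin of simple epithelia, was at 147 CPM against 1.69, and ran from 0 through a median of 78.7 to 1993 CPM in single cells. It was found in 125 cells and missing in 47. Its partner Krt18, with which it forms filaments, was listed at 0 for the tumor library, as were Krt19, Cldn3, Cldn4 and Cldn7. Epcam, an adhesion protein of epithelial cells, had 10 UMIs in all (1.18 CPM), and Cdh1, or E-cadherin, had 4 (0.472 CPM). Spint2, an inhibitor of membrane proteases, was the second most abundant at 36.8 CPM, close to the 33.0 of CD45-positive cells. The collagen receptor Ddr1 and the protease St14 were higher at 7.66 against 2.25 and 7.19 against 3.19 CPM. With the other scaling St14 was no longer called, leaving 2 higher. Pkp3, Jup, Spint1, Lsr and Cdh1 were lower than in CD45-positive cells, and 27 of the 34 genes stood no higher than there.

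To place these levels, 2 kinds of normal gland cell were picked by their own markers. Epithelial cells (Epcam and Krt18 with at least 1 UMI each, no Ptprc, 29 cells) had Krt8 at 6747 CPM, Krt18 at 8956 and Epcam at 1718, the last 2 by choice. Fibroblasts (Dcn and Col1a2 with at least 1 UMI, no Ptprc or Epcam, 62 cells) had Krt8 at 4.88 CPM. Krt8 in the Rhox5-positive cells lay between the 2 kinds. The whole epithelial list summed to 217 CPM in the Rhox5-positive cells, 223 in the CD45-positive cells and 26631 in the normal epithelial cells. The mesenchymal list summed to 14693, 10674 and 2083 CPM in the same order, and to 34722 in the fibroblasts. Epcam and Krt18 were counted in the epithelial sums, and Dcn and Col1a2 in the mesenchymal sums. The epithelial sum of the normal epithelial cells and the mesenchymal sum of the fibroblasts are therefore raised in part by choice. These normal gland cells came from another library and were shallow, at medians of 4393 and 2931.5 UMIs.

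**Figure D2:**
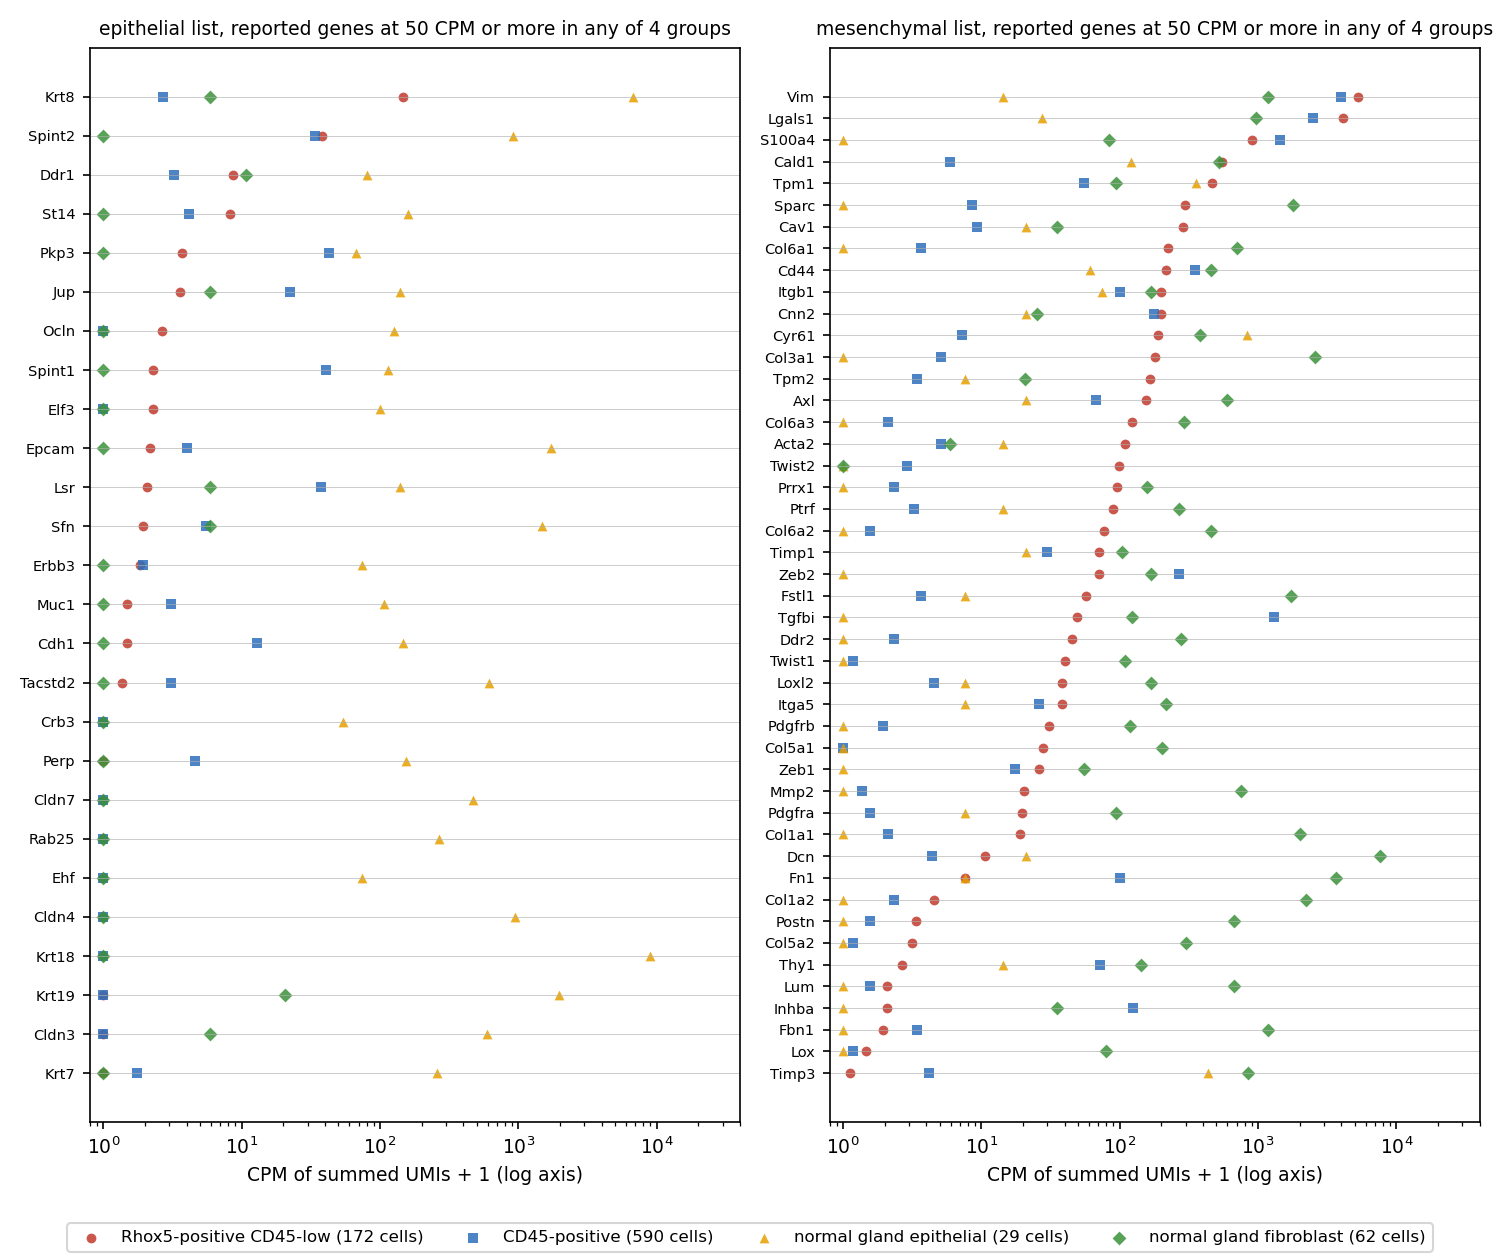
CPM plus 1 (log axis) of epithelial (left) and mesenchymal (right) genes in 4 groups of cells, 1 point per group and gene, for reported genes at 50 CPM or more in at least 1 group. Krt8 is the 1 epithelial gene above 100 CPM in the Rhox5-positive cells, while Vim, Lgals1, Cald1, Sparc and Col6a1 all exceed 200 CPM there. Epcam and Krt18 chose the normal epithelial cells, and Dcn and Col1a2 the fibroblasts.

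The mesenchymal list had 52 of 56 genes in the table and 42 compared, of which 29 were higher and 5 lower. The 16 that reached 50 UMIs in the CD45-positive cells had a median of 122% of the level there (0.858% to 859%). Under the other scaling 27 were higher and 7 lower. Vimentin, the mesenchymal filament protein, was high in both groups (5271 and 3976 CPM) and was not called. Macrophages are also known to make it. Lgals1, at 4122 against 2497 CPM, was not called either, and with Vim it made up the larger part of the mesenchymal sum in both groups. Sparc, a matrix protein of remodelling tissue, stood at 294 against 7.50 CPM, Col3a1 at 178 against 4.13 and tropomyosin Tpm2 at 166 against 2.44. Smooth muscle actin Acta2 was at 108 against 4.13 CPM and was uneven, with a single-cell median of 35.1 and a highest value of 1535. Tgfbi, Zeb2, Fn1, Thy1 and Inhba were lower. Zeb2, which macrophages use, stood at 69.6 against 266 CPM, and fibronectin Fn1 at 6.60 against 99.1. After thinning to 6000 UMIs per cell, the mesenchymal sum had a median of 85.5 UMIs (29 to 155) in the Rhox5-positive cells and 62 (1 to 191) in the CD45-positive cells, so the groups overlapped. The epithelial sum without Krt8 had medians of 0 (0 to 3) and 1 (0 to 9).

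Levels of the factors that repress epithelial genes differed by gene. Twist2 stood at 97.5 against 1.88 CPM and was found in 89.0% against 1.69% of cells. Prrx1, a homeobox gene of mesenchyme, stood at 94.2 against 1.31 CPM. Twist1 was at 39.1 CPM in the group and had 1 UMI in the CD45-positive cells. Snai1 was at 33.3 against 1.13 CPM. Zeb1 was at 25.1 against 16.5 CPM and was not called, and Zeb2, given above, was lower. Of Snai1, Twist1, Twist2, Zeb1 and Zeb2 at least 3 were found in 143 of the 172 cells, and both Twist genes in 116.

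Fibroblast genes were uneven. Col3a1 and Serpinf1 (197 against 6.57 CPM), an inhibitor of vessel growth, were spread over 87.8% and 77.9% of the cells. Col1a1, the main fibroblast collagen, was at 18.0 CPM against 2014 in the normal fibroblasts, and 3 cells held at least 20 of its UMIs. The top cell alone held 58.0% of the Dcn and 56.7% of the Col1a2 UMIs. Clec3b was listed at 0, and Lum and Pi16 stood at 1.06 and 0.590 CPM. Of 11 fibroblast genes 8 were compared, with 6 higher and 1 lower. Only 2 reached 50 UMIs in the CD45-positive cells by themselves, at a median of 64.4% of the level there. Among pericyte and smooth muscle genes, 4 of 11 were in the table, and Acta2 and Pdgfrb (29.8 against 0.938 CPM), the receptor for PDGF-BB, were higher. None of the 4 reached 50 UMIs in the CD45-positive cells by themselves.

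Of 10 caveola genes 8 were in the table and 7 were compared, and 6 were higher. Cav2 and Pacsin2 reached 50 UMIs in the CD45-positive cells by themselves. Cav1 led at 287 CPM, followed by the cavin Prkcdbp (243 against 5.25), Cav2 (100.3 against 18.8) and the cavin Ptrf (89.0 against 2.25), all found in over 90% of cells. Pacsin2, which bends membranes, was at 54.8 against 43.0 CPM and was not called. Across the 172 cells Cav1 gave r = 0.16 with Prkcdbp and r = 0.05 with Ptrf, a description over cells of 1 library thinned to equal depth. The variance over mean of the thinned counts was 1.14 for Cav1, 1.27 for Prkcdbp and 1.15 for Ptrf, where counting alone gives 1. Counting error of this size holds r low, so these values cannot tell how closely the genes varied together.

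Contractile genes followed, with 16 of 24 compared genes higher and none lower. The 19 that reached 50 UMIs in the CD45-positive cells had a median of 217% of the level there. Under the other scaling 13 were higher and 1 lower. Tagln2 stood at 1288 against 637 CPM, nuclear lamin Lmna at 1271 against 426, and the actin crosslinkers Actn1 and Flna at 152 against 21.6 and 219 against 101. Among integrins and basement membrane genes 14 of 18 were higher and none lower, and the 6 that reached 50 UMIs in the CD45-positive cells had a median of 174% of the level there. Laminin-binding Itga6 was at 120 against 10.7 CPM, and the basement membrane genes Col4a1, Hspg2 and Nid1 were at 92.2, 71.9 and 55.8 against 4.88, 2.63 and 2.44. Itgb1, the common integrin partner, was at 197 against 98.9 and missed the 2-fold limit.

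Genes around YAP, a co-activator that responds to stretch and cell contact, had 20 of 21 listed members in the table. Of 17 compared, 14 were higher and 1 lower, but 3 alone reached 50 UMIs in the CD45-positive cells, and these had a median of 69.5% of the level there. The target Cyr61 stood at 188 against 6.19 CPM, and Ctgf, another, had 7 UMIs in all. The co-activators Wwtr1 (120 against 1.31) and Yap1 (29.8 against 0.375) and their DNA-binding partners Tead2 (60.5 against 0.375), Tead4 and Tead1 were all higher. Lats2, a kinase that restrains YAP, was lower at 12.4 against 35.5 CPM.

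Germline and placental genes beyond the markers were found too. Of 54 genes listed 23 were in the table and, Rhox5 aside, 11 were compared. The rule of size called 8 higher and 3 (Xlr4b, Syce2 and Gata3) lower. The 2 that reached 50 UMIs in the CD45-positive cells were among the lower ones, at 2.24% and 3.27% of the level there, and 11 of the 23 stood no higher than in those cells. Phlda2, an imprinted gene that limits placental growth, stood at 48.3 against 0.938 CPM. Xlr3c, of an X-linked family, was at 38.2 CPM in 70.3% of cells, and Dppa4, a gene of early embryos, at 29.7 CPM in 64.0%, where the CD45-positive cells had 3 and 1 UMIs. Tex11, a meiosis gene, was at 14.6 CPM, and Tdrd1, of the piRNA pathway of male germ cells, at 8.02. Tex19.2, a gene related to Tex19.1, was at 14.5 CPM. Reads that match both could have been lost or split in counting, as with Xlr3a, Xlr3b and Xlr3c. Other germ cell genes were near 0, with Ddx4 at 0.354 CPM and Dppa3 at 0.236. Across cells thinned to equal depth Rhox5 and Tex19.1 showed r = 0.11, a value that counting error at such low counts also lowers.

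The natriuretic peptide Nppb had its receptor gene Npr1 in the same group, at 22.5 against 1.50 CPM. Furin, a protease that can cut the precursor, was lower at 28.4 against 133. Among mammary luminal genes 20 of 22 were in the table, and 17 of the 20 stood no higher than in the CD45-positive cells. Of 4 compared, 1 was higher, 2 were lower and 1 was neither. The estrogen receptor Esr1 had 1 UMI, and Pgr, Prlr, Foxa1, Csn3 and Elf5 were at 0. Egfr was higher at 7.66 against 0.188 CPM, and Erbb2 stood at 5.42.

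Signals sent and received differed by gene rather than as a list. Of 26 chemokine and growth factor genes compared, 15 were higher and 8 lower. In the CD45-positive cells by themselves 15 genes, not the same 15, reached 50 UMIs. These had a median of 18.3% of the level there (2.60% to 882%). The monocyte chemokine Ccl2 was high in both groups, at 1551 and 943 CPM, and Ccl7 likewise, at 762 and 803, so neither was called. Csf1, the macrophage growth factor, was at 124 against 14.1 CPM, Pdgfa at 120 against 7.13, the EGF-family ligands Hbegf and Ereg at 109 against 14.4 and 56.0 against 0.938, and Fgfr1 at 93.5 against 4.32. Vegfa was lower at 12.5 against 68.3 CPM, as were Cxcl2 and Ccl5. In the TGF-beta list 9 of 25 were higher and 10 lower. Tgfb1 itself stood at 110 against 328 CPM, and the receptors Tgfbr1 and Tgfbr2 at 4.83 and 6.37 against 21.8 and 24.0. In the plasminogen list 4 of 15 were higher and 5 lower, where 31.9% and 19.7% of all genes were. The 10 that reached 50 UMIs in the CD45-positive cells had a median of 53.6% of the level there. The plasminogen activator Plat stood at 38.6 against 4.50 CPM and tissue factor F3 at 41.9 against 0.938.

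Immune recognition genes were mostly lower. Interferon response genes were lower in 25 of 29 cases and higher in none (median log2 ratio -2.30), with Ifitm3 at 1415 against 3785 CPM and Isg15 at 126 against 1513. Class I presentation genes were lower in 13 of 21 and higher in none. The light chain B2m was at 3126 against 6958 CPM and H2-K1 at 363 against 1437, while H2-D1, at 2195 against 2974, was not called. H2-Q7, H2-Q6 and H2-T23 were at 6.49, 1.06 and 4.13 CPM, and these are related genes whose shared reads could be lost or split in counting. Of the ligands that immune receptors read, Cd274, which encodes PD-L1, stood at 7.78 against 110 CPM, Cd47 at 193 against 470, and Raet1e, a ligand of the killer cell receptor NKG2D, higher at 76.5 against 9.76. The CD45-positive cells are themselves leukocytes by their markers, and what part that plays in these lists was not tested.

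Of 23 nucleolar and MYC-target genes 19 were higher and none lower. The 21 that reached 50 UMIs in the CD45-positive cells had a median of 411% of the level there. Myc itself stood at 193 against 16.7 CPM, the nucleolar genes Npm1 and Ncl at 2864 against 697 and 1018 against 275, and Srm, an enzyme of polyamine synthesis, at 229 against 19.9. Among genes of G1 and cell cycle brakes 5 of 18 were higher, 6 lower and 7 neither. Of all genes 31.9% were higher and 19.7% lower. Cyclin Ccnd1 (229 against 31.1) and its kinase Cdk4 (289 against 71.3) were higher, and the brakes Cdkn1a (157 against 667) and Btg1 (291 against 1854) were lower. Trp53 was at 169 against 34.0 CPM and Phlda3, a p53 target, at 78.2 against 4.88, and of 14 p53-response genes 4 were higher and 3 lower, near the shares of all genes. Of 27 glycolysis and hypoxia genes 8 were higher, a share near the 31.9% of all genes, and 2 lower (3 and 2 under the other scaling), among them Mif at 2375 against 715 CPM and Adm, which encodes adrenomedullin, at 49.4 against 2.63. Of 27 stress and dissociation genes 6 were higher and 9 lower (2 and 10 under the other scaling). The shares of all genes were 31.9% and 19.7%. Klf2 stood at 1379 against 209.9 CPM, the metallothionein Mt2 at 1470.2 against 302 and the heme enzyme Hmox1 lower at 107 against 841. Respiratory chain genes showed little contrast, with 1 higher and 1 lower of 29.

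Leukocyte transcripts were present throughout at a low level. Of 15 pan-leukocyte genes 14 were lower and none was at 0, and the list summed to 967 against 14490 CPM, or 6.67%. In single cells the sum ran from 275 through 884 to 3252 CPM, against 1308 through 14910 to 33425 in the CD45-positive cells, so 23 of the 172 cells overlapped the lowest of those. The exception in the list was Arhgdib at 497 against 625 CPM, and it made up the larger part of the sum. Macrophage genes were all lower, 15 of 15, at 1.04% to 4.41% of the CD45-positive level. Lyz2 stood at 139 against 6653 CPM, and had a UMI in 95.9% and 94.2% of cells, at median depths of 43253 and 7873 UMIs. Of the dendritic, neutrophil and B cell lists 6 of 7, 6 of 6 and 1 of 1 were lower and none higher, and the adipocyte list had 1 of 2 lower. The T or NK genes compared, 7 of 7 lower, stood at 1.56% to 4.85%, and the 7 class II genes at 1.02% to 8.93%. The lowest ratios by the naming rule were Cd74, the class II chaperone, at 49.4 against 4824 CPM (97.6-fold lower, 88.7 to 108), the complement genes C1qa and C1qb, H2-Eb1, the killer proteases Gzma, Gzmb, Gzmc, Gzmd, Gzmf and Gzmg, the survival genes Bcl2a1b and Bcl2a1d, Inhba, Celf2 and Ly86. Some of the granzymes are close copies of one another, as are the Bcl2a1 genes. Doublets were not called here. Without the 23 cells, Cald1 was 111-fold and Krt8 91.3-fold higher.

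**Figure D3:**
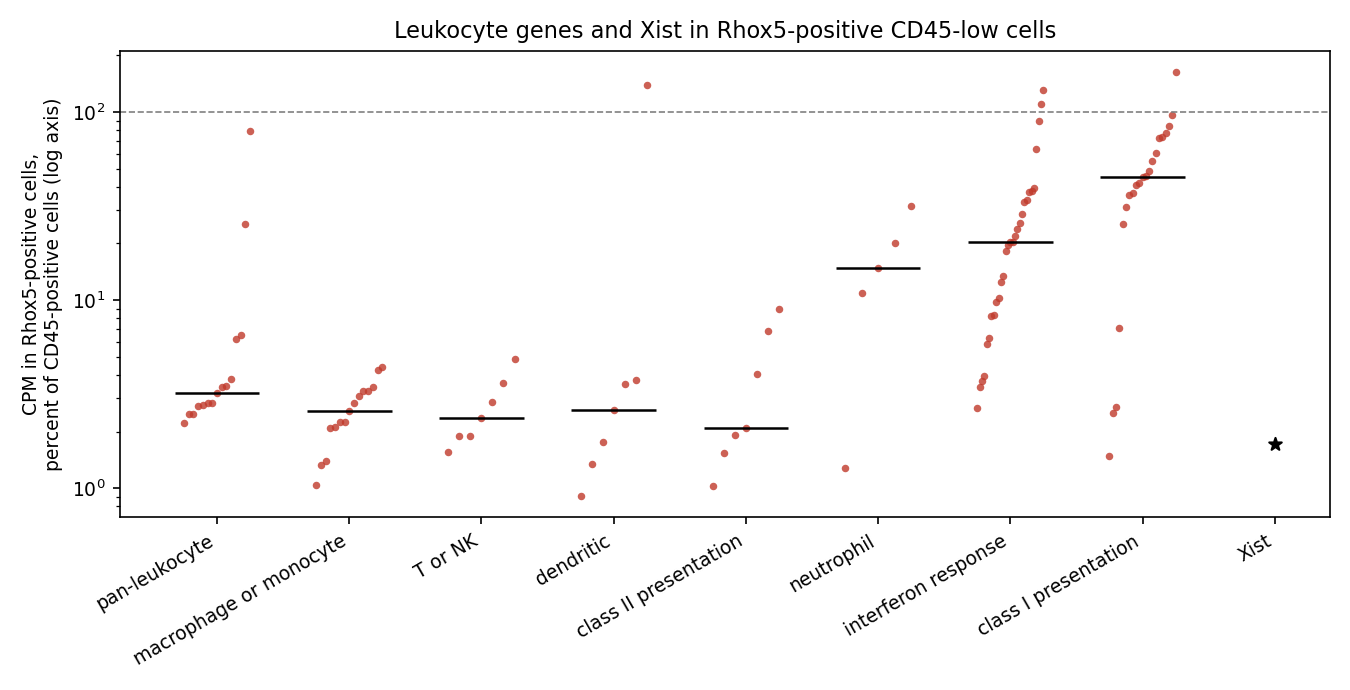
CPM in the Rhox5-positive cells as a percent of that in the CD45-positive cells (log axis), 1 point per gene with at least 50 UMIs in the CD45-positive cells, bar at the median, dashed line at 100%. Leukocyte and class II genes lie mostly between 1% and 10%, interferon and class I genes spread higher, and Xist (star) stands at 1.72%.

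Xist, the RNA that silences the second X chromosome of female cells, was looked at after its values had been seen. It had 119 UMIs in 58 of the 172 cells (14.0 CPM, 11.6 to 16.8) and 4356 UMIs in 572 of the 590 CD45-positive cells (817 CPM). After thinning to 6000 UMIs it was found in 5.23% against 95.1% of cells. Both normal gland groups had it as well, at 1738 and 1707 CPM. In the Rhox5-positive cells its level, 1.72% of that in CD45-positive cells, was within the range of the macrophage genes there. Median log2 ratios by chromosome ran from 0.03 on chromosome 5 to 0.71 on chromosome 15, and the X chromosome stood at 0.14.

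Cycling cells were found by a count of 15 genes of G2 and mitosis in each cell thinned to 6000 UMIs. At least 5 UMIs were called cycling, 0 or 1 non-cycling and 2 to 4 intermediate, so the classes are ranges of a score. By this count 83 of the 172 cells were cycling, or 48.3% (exact 95% interval 40.6 to 56.0), 56 were non-cycling and 33 intermediate, with 16 cells within 1 UMI of the cycling limit. Among the CD45-positive cells 35 of 590 were cycling, or 5.93% (4.17 to 8.15). Without thinning the shares were 79.1% and 7.80%. A minimum of 3 or 10 UMIs gave 62.8% or 30.2% cycling. Of the 15 genes, 14 were higher over the whole group than in the CD45-positive cells, with Ube2c, which drives the end of mitosis, at 266 against 41.6 CPM and Cdk1 at 160 against 13.3. Mki67 was the other, at 11.9 against 13.9.

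**Figure D4:**
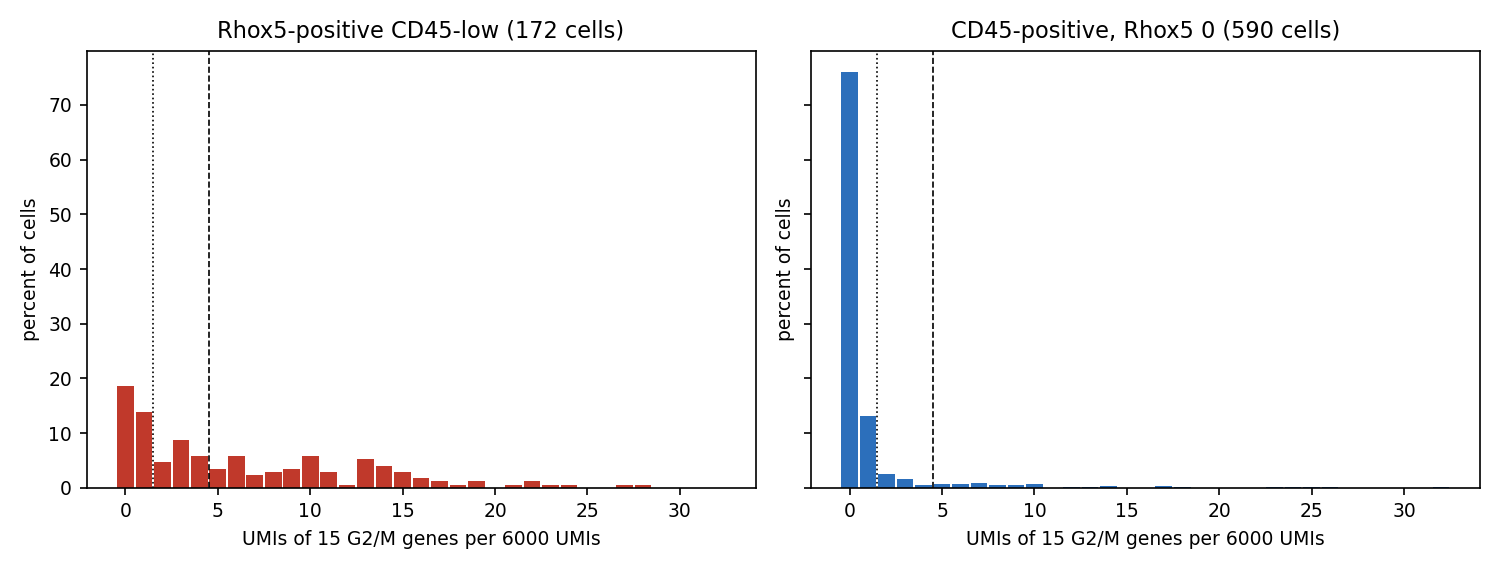
Percent of cells at each count of 15 G2/M genes per 6000 UMIs, for the 172 Rhox5-positive cells (left) and the 590 CD45-positive cells (right), on the same axes. Dotted and dashed lines are the non-cycling and cycling limits; 48.3% of the Rhox5-positive and 5.93% of the CD45-positive cells lie right of the dashed line.

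Cycling and non-cycling Rhox5-positive cells were compared over 7655 genes, the 15 scored genes left out. Of these 341 (4.45%) were higher and 44 (0.575%) lower in cycling cells, with a median log2 ratio of 0.11. Cycling cells were also deeper, at medians of 52884 against 38141.5 UMIs, and with all cells thinned 63 genes were higher and 9 lower of 2102. Genes of the same process, which the score goes with by its making, led the list: 46 of 50 further G2/M genes and 16 of 29 S phase genes were higher, 62 of the 341 in all. Cdc20, an activator of the anaphase machinery, stood at 128 against 11.3 CPM, and the nucleotide enzymes Tk1 and Rrm2 at 139 against 24.5 and 88.1 against 16.0. Outside those lists the clearest were Cdca5, a cohesin regulator, at 34.9 CPM against 1 UMI, Incenp (49.4 CPM against 3 UMIs), Cep55, Ska1, Sapcd2, Melk, and Kif4, Mastl, Depdc1a and BC030867, which had no UMI in non-cycling cells.

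The genes that were lower in cycling cells were fewer and less even. Ndrg1, a gene of stress and low oxygen, was 2.31-fold lower (2.06 to 2.59) at 127 against 294 CPM, and the glucose carrier Slc2a1 was at 92.0 against 191. Vegfa was the third of 26 glycolysis and hypoxia genes that were lower. Amhr2, the receptor of anti-Müllerian hormone, was 4.95-fold lower (3.03 to 8.29), found in 22.9% against 46.4% of cells. Klf5, Snhg12, Dusp4, Zbtb20, Selenbp1 and Slc14a1 followed. Single cells set other values: 1 non-cycling cell held 67.9% of the non-cycling Il33 UMIs, and 1 cycling cell held 46.4% of the cycling UMIs of Fabp4.

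Of 39 mesenchymal genes 2 were higher in cycling cells, a share near the 4.45% of all genes, namely Col1a1 and Dcn, both set largely by few cells as given above, and none was lower, with a median log2 ratio of -0.08. None of 4 epithelial, 7 caveola, 24 contractile and 8 germline genes was called. Krt8 stood at 134 in cycling and 193 CPM in non-cycling cells, where 1 cell held 34.1% of its UMIs. Twist2 was at 106 and 94.1 CPM, Snai1 at 33.7 and 30.6, and Twist1 at 33.5 and 45.2. Of the group's markers Cald1 stood at 564 and 500.1 CPM, Cav1 at 266 and 358, Nppb at 233 and 160.4 and Tex19.1 at 147 and 142. Myc was at 180 and 229 CPM. Across the 172 cells the mesenchymal sum and the G2/M sum had r = 0.00.

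**Figure D5:**
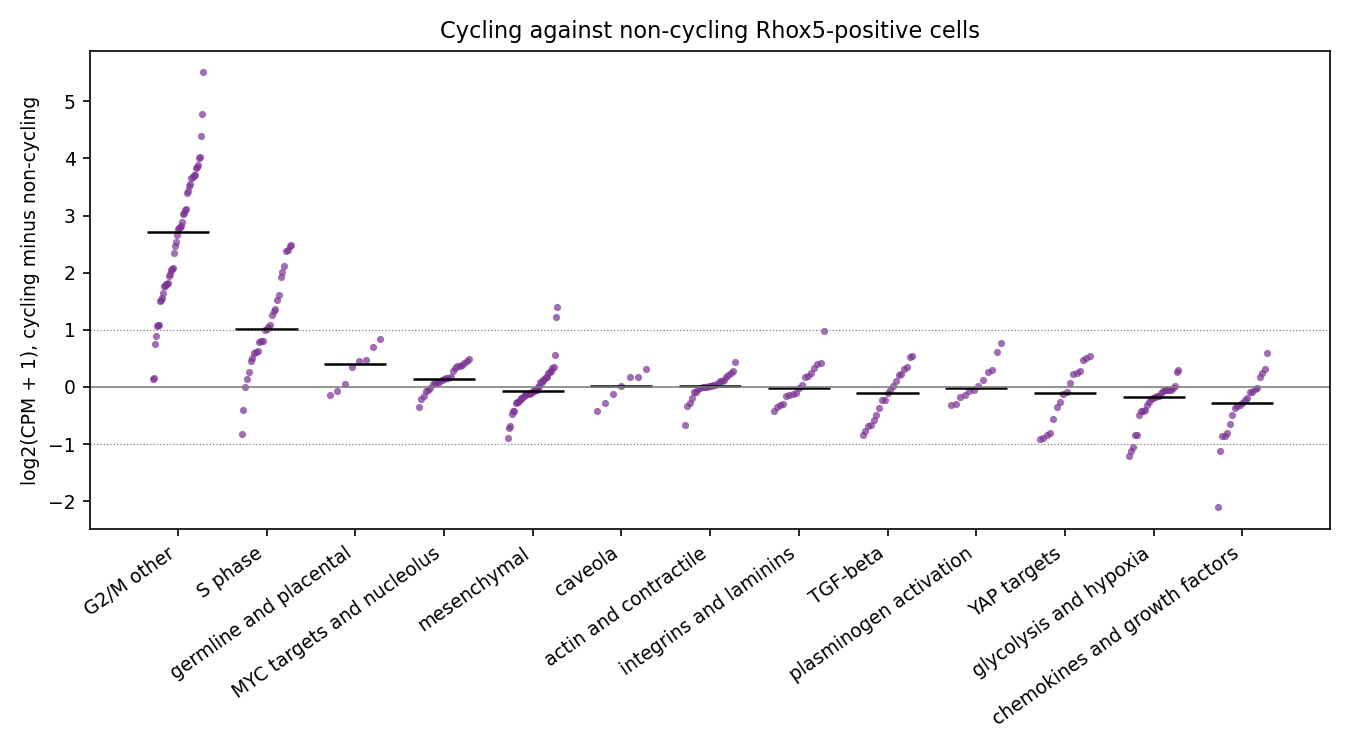
Difference of log2(CPM + 1), cycling minus non-cycling Rhox5-positive cells, 1 point per gene with at least 50 UMIs, by gene list, with the median as a bar and dotted lines at a 2-fold difference. The further G2/M genes lie mostly above the upper dotted line, and the mesenchymal genes lie around 0.

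The cells also varied among themselves in genes unrelated to the rule. In thinned cells the median variance over mean was 1.19 over 1508 genes with a mean of at least 0.5 UMIs, where counting alone gives 1, and 173 genes reached 2. Malat1 led at 34.7, followed by Actb (30.1), Ccl2 (14.5), the metallothionein Mt1 (14.2), S100a6, Ccl7 (11.5), the matrix cytokine Spp1 (9.36), Cxcl1 (9.34), Ccl5 (9.16), Mt2 (9.13), the NF-kB inhibitor Nfkbia (8.33) and S100a4 (8.28). Ccl2 ran from 0 through a median of 4 to 72 thinned UMIs, and the 10 highest cells held 40.1% of them. For Cxcl1 the 10 highest held 84.5%, and 39 cells had any. Some of these genes moved together over the cells: Mt1 with Mt2 (Pearson 0.84, Spearman 0.80), Ccl2 with Ccl7 (Pearson 0.76, Spearman 0.64) and Nfkbia with Ccl2 (Pearson 0.56, Spearman 0.64). Krt8 and the mesenchymal sum gave r = 0.15. The correlations are over 172 cells of 1 library at equal depth and have no test.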

How the data were processed

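Single-cell 3' libraries were made with the 10x Chromium kit from 1 normal gland (NEC) and 1 tumor (TEC) sample of sorted cells, per the labels' protocols. The submitters' processing notes name the build mm10 and, as tools, Seurat, STAR 2.5.1b and Cell Ranger 2.0.2, without their settings. The authors deposited whole-number UMI counts per gene and cell, with no normalization. Cells were given to libraries by the start of their names; "control" was taken as the normal gland from the word alone, and 0 columns were left over. The tumor library had 1000 cells of at least 6376 UMIs (16444540 in all), the normal gland library 1806 cells of at least 1157 UMIs (5228289 in all). No cell was removed and no doublet caller was run.

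Cells were selected by Rhox5 and Ptprc UMIs, and the members, gene lists and settings were chosen with earlier results of these data known. UMIs were summed per group and scaled to CPM. With 1 library per group no test was made: ratios of CPM carry exact Clopper-Pearson 95% intervals, CPM exact Poisson intervals and shares exact binomial ones. PCR, animals and libraries are not covered by them. A gene was called at 50 UMIs, a 2-fold ratio and an interval excluding 1; Rhox5 and Ptprc were left out, and a sum of 0 was set to 3 counts. Named genes were those whose intervals lay farthest from 1, 15 in each direction, the 12 of highest CPM and the 12 most variable. Between cycling and non-cycling cells 10 in each direction were named. Mitochondrial, ribosomal, hemoglobin and immunoglobulin genes and unnamed models were left out by the pattern of their symbols. List genes and markers were named with their list. Cells were thinned to 6000 UMIs (seed 11). Python 3.11.15, numpy 2.4.6, pandas 2.3.3, scipy 1.17.1 and matplotlib 3.10.9 were used, and the calling was tested on simulated data. Of 13774 genes 13413 matched RefSeq entries, and start sequences came from RefSeq (GRCm38.p6). Values of some listed genes are not reported here.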

Additional observations from a re-analysis of the deposited data

How the results depend on the processing

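The group was also cut at 3 or 10 Rhox5 UMIs (182 or 137 cells) and at 0 Ptprc UMIs (127 cells), and the comparison was rerun with other references, minimums, scalings and depths. Over 121 such ratios of 11 named genes, the minimums left out since they cannot move a ratio, none changed direction. A minimum of 200 UMIs gave 1766 higher and 1122 lower genes, by testing fewer genes. Thinned cells gave 1515 higher and 1624 lower of 6413 genes compared. Cells of 10000 to 30000 UMIs gave 1010 higher and 1231 lower of 5151, where the main comparison covered 9582. In both settings more genes were lower than higher, unlike in the main comparison, and the cause was not tested. In that depth window Nppb was 41.4-fold, Tex19.1 41.0-fold, Twist2 24.2-fold and Col6a1 216-fold higher, and against CD45-positive cells with at least 3 Ptprc UMIs Cav1 was 61.2-fold, Tex19.1 169.7-fold, Nppb 59.3-fold and Twist2 38.1-fold higher, from 34.8-fold, 77.2-fold, 101-fold and 52.0-fold. Vim came to 1.03-fold with median-of-ratios scaling. The epithelial sum was 205 CPM as a mean over cells. The mesenchymal sum was 14793 CPM at 10 Rhox5 UMIs, 14888 thinned, 14836 as a mean over cells and 14920.3 without 23 leukocyte-rich cells. The cycling share was 62.8% and 30.2% at 3 and 10 UMIs, 45.9% by S phase genes and 50% under another thinning seed. Between cycling and non-cycling cells, 78 genes were lower with median-of-ratios scaling, and thinned cells gave 63 higher and 9 lower, with fewer genes tested. Leaving out cells with 5 or more pan-leukocyte UMIs left 2 of 172 cells and was not run; leaving out the 23 cells (149 kept) and a Lyz2-positive, Cd3-negative reference (366 cells) were chosen after seeing the data. No paired analysis was possible because each group is 1 library. Depth limits the shallow cells most: a gene at 0 in the summed cells can still be present.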
